A study of Mus musculus with 8 samples.

Results

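Respiratory complex I, the NADH:ubiquinone oxidoreductase of the inner mitochondrial membrane, was examined through 36 of its nuclear-encoded subunits, all 36 of which had a probe among the 20972 genes with a named probe on the arrays. A gene was taken as a member when it was a listed complex I subunit and a probe other than a control was matched to it by accession. The 36 genes had 42 probes, and 6 of them had more than 1. They comprise 6 core catalytic subunits and 30 accessory subunits. No cut on measured values was used to pick members, but earlier results of these data were known when they were chosen.

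Complex I takes electrons from NADH and passes them along a chain of iron-sulfur clusters to ubiquinone, and it couples this to proton pumping across the membrane. The core subunits are those shared with the bacterial enzyme, while the accessory subunits surround them and are needed for assembly and stability. The matrix arm holds the NADH-oxidising and quinone-reducing modules, and the membrane arm holds a proximal and a distal pumping part. Red oxidative muscle is rich in the enzyme. The mitochondrial genome encodes further core subunits of the membrane arm, which were not analysed here.

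The animals were 4 mice homozygous for a mutant Pus1 gene and 4 wild type mice, and RNA came from their red gastrocnemius, the oxidative part of a calf muscle. Pus1 encodes a pseudouridine synthase that modifies cytosolic and mitochondrial tRNAs. All 8 mice were 14 to 16 weeks old, and all were of strain C57BL/6J, backcrossed for 5 generations. The labels do not give the nature of the Pus1 allele. Each of the 4 Agilent 2-colour arrays held 1 mutant and 1 wild type sample of the same sex, from 100 ng of RNA each. The pairs were male on arrays 1 and 2 and female on arrays 3 and 4. The mutant carried the dye Cy5 on arrays 1 and 3 and the dye Cy3 on arrays 2 and 4.

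The Pus1 transcript was well above background in 0 of 4 mutant and 4 of 4 wild type samples. Only a bound can thus be given, and the transcript was at least 3.57-fold lower in mutants. Measured mean log2 levels were 6.83 in mutants and 8.74 in wild types. On these measured signals the limma adjusted p was 0.0454, which does not test the bound. The bound sets the wild type mean against the lowest signal well above background in each mutant sample, or the probe's own where higher. The share of probes above background ran from 39.8% to 42.5% in the mutants and from 39.7% to 47.3% in the wild types. All 12 skeletal muscle markers listed, among them Acta1, Ckm and Myh7, passed the filter on dim probes described below.

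The subunits are encoded by separate genes, at most 5 of them on 1 chromosome (chromosome 17), so the sequences around their transcription starts are shown first, for YY1 and NRF1, both known regulators of respiratory genes. A window of 300 bases, 250 upstream of the start and 50 from it onward, was taken from RefSeq (GRCm38.p6) for 33 members, all but Ndufa2, Ndufb9 and Ndufs1. The letters atggcggc, the core of the YY1 recognition sequence, stood on either strand in 6 of the 33 (18.2%), against 2.24% of all 32851 windows. The windows below lie on chromosomes 3, 6, 10, 13 and 17 and run 5′ to 3′ on the gene's strand, with the motif in capitals and up to 10 bases on either side.
Ndufb5 (chr3:32737082-32737089, + strand): cggtgtagccATGGCGGCcatgagcctg
Ndufa9 (chr6:126849105-126849112, - strand): gtgggagaagATGGCGGCcgccgtccgc
Ndufs7 (chr10:80249476-80249483, + strand): cgaggccaagATGGCGGCgctggcgggt
Ndufs6 (chr13:73328439-73328446, - strand): caccggcaagATGGCGGCggtgct
Ndufs4 (chr13:114388049-114388056, - strand): ctacaggaagATGGCGGCggtc
Ndufa7 (chr17:33824474-33824481, + strand): cgtgtccatgATGGCGGCgatctggcgg
Ndufa11 (chr17:56717702-56717711, + strand): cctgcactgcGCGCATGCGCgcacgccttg

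The last of these shows a match to the recognition sequence of NRF1, a transcription factor known for driving respiratory genes, which 1 of 33 members held (3.03%), against 0.971% of all windows. In 5 of the 6 genes the atggcggc letters lay 20 to 39 bases after the start, and they begin with the letters of a start codon, whose place was not looked up. Ndufa7 has a pair of overlapping windows, and its match lay before the start. Such a match describes the letters and not binding. The other motifs searched on both strands were gggcgg, the Sp site (45.5% of members against 35.7% of all windows), ccaat (30.3% against 37.4%), tataaa (12.1% against 13.6%), tgacgtca, the CREB site (9.09% against 1.79%), aaggtca, the ERR core site (9.09% against 4.72%), and ccggaagt, the GABP site (3.03% against 3.89%). The median GC content of the 250 upstream bases was 57.6% in the members' windows, against 52.4% in all windows.

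The 250 bases upstream of Ndufb5, the subunit with the smallest genotype p, are given for context and held none of the motifs searched.
Ndufb5 upstream (chr3:32736813-32737062, + strand): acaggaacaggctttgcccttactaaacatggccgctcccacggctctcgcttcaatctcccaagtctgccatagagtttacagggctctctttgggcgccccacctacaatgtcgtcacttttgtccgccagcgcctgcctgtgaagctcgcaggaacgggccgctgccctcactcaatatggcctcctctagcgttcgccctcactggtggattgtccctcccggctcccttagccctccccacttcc

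All 36 subunits were measurable in this muscle, and none of them passed the test for a change with the mutant Pus1 genotype. Each gave signal well above background in 4 of 4 mutant and 4 of 4 wild type samples, and 0 had a saturated spot. All 36 thus passed the filter, which asked for signal well above background throughout either genotype and left 11453 genes. Each gene is represented by its brightest probe. The genotype test called 0 of 36 subunits (limma with a dye term, adjusted p from 0.707 to 0.976), and 0.0175% of all genes tested were called. At an unadjusted p under 0.05 there was 1 of 36, Ndufb5, lower in mutants, against 5.87% of all genes (2.46% lower and 3.41% higher in mutants). In bulk muscle, fewer cells of a type and less RNA per cell cannot be told apart.

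The intervals were narrow enough to bound the changes. The fitted log2 changes ran between an 11.1% lower level in mutants, for Ndufb5, and an 8.28% higher one, for Ndufab1. In the median subunit the 95% interval reached 0.19 to either side on the log2 scale, and for 35 of 36 subunits both bounds lay within 0.4 of 0. The exception was Ndufab1, whose interval ran from -0.32 to 0.55. Over all 36 the lowest bound was -0.38. For 0 of 36 subunits did the mutant and wild type levels stand apart without overlap, against 0.559% of all genes lower without overlap and 0.664% higher.

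Most fitted changes were small and below 0, though not in the authors' deposited table. The fitted change was below 0 for 28 of 36 subunits (77.8%, against 45.8% of all genes), with a median of -0.047 against 0.012 over all genes, but 23 of 36 were above 0 in the authors' deposited table, with a median of 0.022 against 0.063 over all genes. A direction that held on 4 of 4 arrays was lower for 2 of 36 subunits, Ndufv2 and Ndufb8, against 3.94% of all genes, and higher for 0, against 6.5%. The median of the subunits also depended on single pairs, at -0.015 without the pair of array 2 and -0.095 without the pair of array 4.

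**Figure D1:**
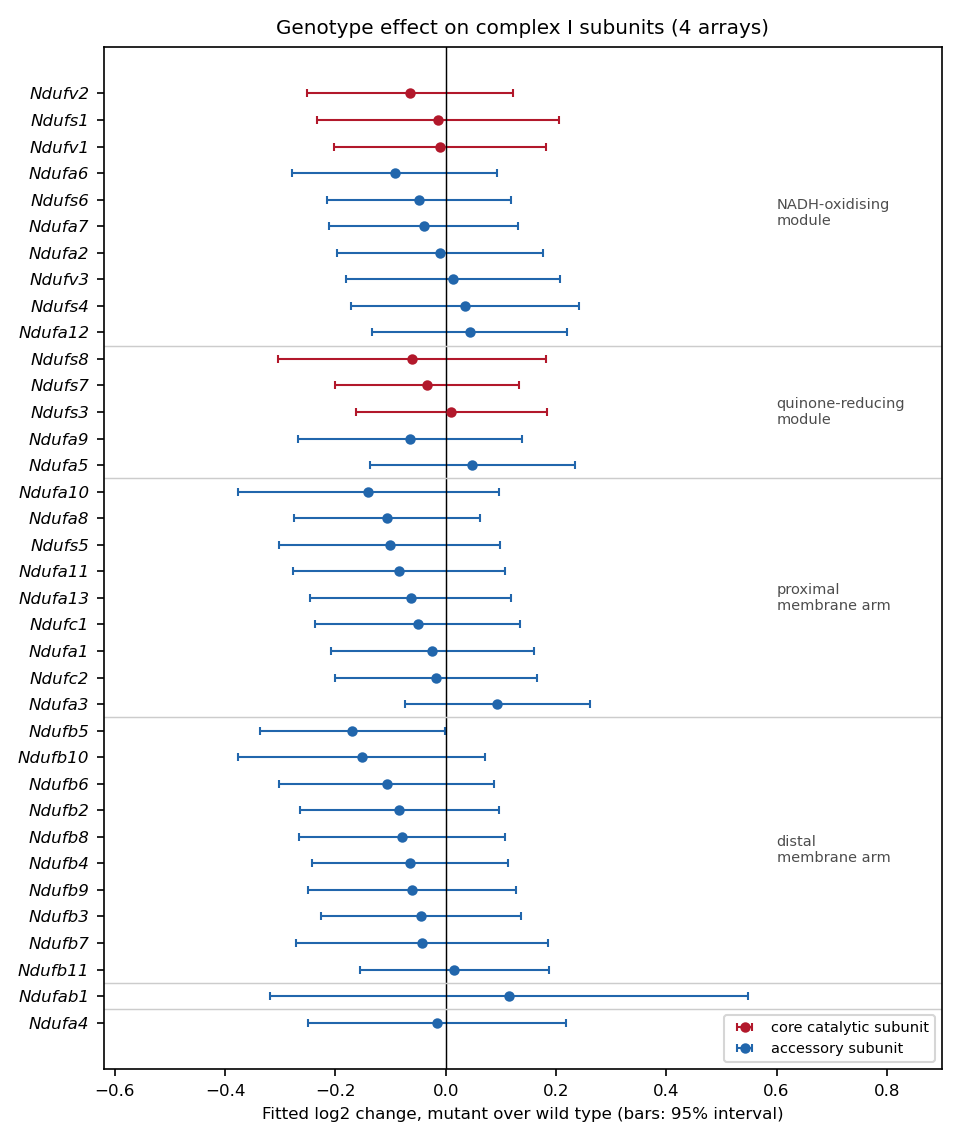
Fitted log2 change of each of the 36 subunits (mutant over wild type, 4 arrays, dye term in the model), grouped by module; points are estimates, bars are 95% intervals, red marks core catalytic and blue accessory subunits. All intervals include 0 except that of Ndufb5 (upper bound -0.0012), and 28 of 36 points lie below 0, whereas 23 lie above 0 in the authors' deposited table.

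The core catalytic subunits carry the redox centres, and their levels lay close together in the genotypes. Ndufv1 binds NADH and the flavin. Its log2 levels were 16.59, 16.16, 16.30 and 16.32 in mutants 1 to 4, against 16.36, 16.52, 16.09 and 16.44 in wild types 1 to 4. The highest value was a mutant's and the lowest a wild type's, and the fitted change was -0.011 (SE 0.076). Ndufv2, which carries an iron-sulfur cluster beside Ndufv1, measured 15.68, 15.67, 15.77 and 15.77 in mutants, against 15.69, 15.89, 15.79 and 15.77 in wild types. The mutant of each pair was the lower one, with a ratio of -0.22 on array 2 and of -0.017 to -0.0061 on the others, and the fitted change was -0.065 (SE 0.073).

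Ndufs1 is the largest subunit of the NADH-oxidising module and holds several iron-sulfur clusters. It measured 15.58, 15.55, 15.62 and 15.74 in mutants, against 15.80, 15.58, 15.75 and 15.42 in wild types. The mutant was lower on arrays 1 to 3 and higher by 0.33 on array 4, and the fitted change was -0.014 (SE 0.086). Over these 3 core subunits of the NADH-oxidising module the limma adjusted p was 0.841 or higher.

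In the quinone-reducing module, Ndufs3 is a core subunit without a redox centre. It measured 16.21, 15.96, 16.07 and 16.19 in mutants, against 16.13, 16.10, 15.97 and 16.20 in wild types. The groups overlapped over nearly their whole range, with a change of 0.010 (SE 0.069). Ndufs7 holds the last cluster before ubiquinone, and it measured 16.80, 16.59, 16.79 and 16.42 in mutants, against 16.59, 16.89, 16.60 and 16.68 in wild types. Here the Cy5 sample was the brighter one on all 4 arrays, and the fitted change was -0.033 (SE 0.066).

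Ndufs8, which binds further iron-sulfur clusters, measured 13.15, 12.73, 13.07 and 13.27 in mutants, against 13.13, 13.10, 13.06 and 13.19 in wild types. Mutant 2 was 0.37 below its partner on array 2, and the other mutants were 0.015 to 0.087 above theirs. The fitted change was -0.061 (SE 0.096). The limma adjusted p of these 3 quinone-module core subunits ran from 0.892 to 0.974.

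Core and accessory subunits differed by less than the spread between arrays. The median fitted change was -0.024 over the 6 core and -0.050 over the 30 accessory subunits, a difference of 0.026. Per array, the core median minus the accessory median was -0.043, -0.011, 0.0094 and 0.061 on arrays 1 to 4. It was positive on both female arrays and negative on both male arrays, and without the pair of array 2 the fitted difference was 0.074. Counted by the sign of the change, 5 of 6 core and 23 of 30 accessory subunits were below 0.

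Grouped by position in the enzyme, the fitted median was -0.012 for the 10 subunits of the NADH-oxidising module and -0.033 for the 5 of the quinone-reducing module. It was -0.063 for the 9 of the proximal and -0.072 for the 10 of the distal membrane arm. The number of subunits below 0 was 7, 3, 8 and 9 in these 4 groups. These medians lay closer together than the values of any one module on the 4 arrays, whose SD was 0.092 or more. The median of the distal arm was 0.0074, -0.25, 0.025 and -0.13 on arrays 1 to 4.

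Ndufb5, a small membrane-spanning subunit of the distal arm, had the smallest genotype p of the 36. Its log2 levels were 16.04, 15.71, 15.95 and 15.33 in mutants, against 16.06, 16.07, 15.92 and 15.66 in wild types. Mutants 2 and 4 were 0.36 and 0.33 below their partners, mutant 1 was 0.024 below and mutant 3 was 0.037 above. The fitted change was -0.17 (SE 0.066, limma unadjusted p = 0.0489, adjusted p = 0.707), and the unadjusted p was over 0.05 when any 1 of the 4 pairs was left out. A second probe of Ndufb5 gave -0.17, -0.20, -0.31 and -0.068 on arrays 1 to 4, lower in the mutant each time. In a fit over 14509 probes the second probe had a change of -0.19 (SE 0.073, limma unadjusted p = 0.0458, adjusted p = 0.722).

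Ndufb10 faces the intermembrane space at the far end of the membrane arm. It measured 16.70, 16.41, 16.64 and 16.19 in mutants, against 16.44, 16.99, 16.63 and 16.48 in wild types. Wild type 2 was the highest sample and mutant 4 the lowest, and the mutant was the higher one on arrays 1 and 3. The fitted change was -0.15 (SE 0.088, limma adjusted p = 0.707). The remaining 8 distal subunits, Ndufb2, Ndufb3, Ndufb4, Ndufb6, Ndufb7, Ndufb8, Ndufb9 and Ndufb11, had changes from -0.11 for Ndufb6 to 0.016 for Ndufb11.

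In the proximal membrane arm, Ndufa10 has the fold of a nucleoside kinase and sits on the matrix side. Its levels were 13.84, 13.53, 13.61 and 13.90 in mutants, against 13.83, 13.88, 13.84 and 13.89 in wild types. The wild types lay within a narrow band, and mutants 2 and 3 lay below it. The fitted change was -0.14 (SE 0.093, limma adjusted p = 0.727).

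Ndufa8, a subunit of the intermembrane-space side held by disulfide bonds, measured 14.51, 14.20, 14.25 and 14.06 in mutants, against 14.46, 14.43, 14.27 and 14.30 in wild types. The mutant was the lower one on arrays 2, 3 and 4, with a fitted change of -0.11 (SE 0.066, limma adjusted p = 0.713). Ndufs5, another intermembrane-space subunit, measured 15.55, 15.16, 15.46 and 15.33 in mutants, against 15.49, 15.61, 15.28 and 15.52 in wild types. Its change was -0.10 (SE 0.079, limma adjusted p = 0.756), with the mutant lower on arrays 2 and 4.

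Ndufa3, a small membrane-spanning subunit, was the proximal member with a positive change. It measured 16.62, 16.46, 16.36 and 16.15 in mutants, against 16.36, 16.48, 16.18 and 16.19 in wild types. The mutant was higher by 0.25 and 0.18 on arrays 1 and 3 and lower by 0.019 and 0.040 on arrays 2 and 4, with a fitted change of 0.094 (SE 0.066, limma adjusted p = 0.742). The other 5 proximal subunits, Ndufa1, Ndufa11, Ndufa13, Ndufc1 and Ndufc2, ranged from -0.085 for Ndufa11 to -0.017 for Ndufc2.

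Ndufab1, the mitochondrial acyl carrier protein, which also serves fatty acid and lipoate synthesis, had the highest fitted change and the widest error. It measured 9.57, 8.92, 9.34 and 9.33 in mutants, against 8.85, 9.29, 9.45 and 9.11 in wild types. The array ratios were 0.72, -0.37, -0.11 and 0.22, so the mutant was higher on arrays 1 and 4 and lower on arrays 2 and 3. The fitted change was 0.11 (SE 0.17, limma adjusted p = 0.883).

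Among the accessory subunits of the matrix arm, Ndufa5 belongs to the quinone-reducing module. It measured 17.15, 16.62, 17.16 and 16.68 in mutants, against 16.75, 17.03, 16.77 and 16.88 in wild types. The mutants split into a higher pair, labelled with Cy5, and a lower pair, labelled with Cy3, and the fitted change was 0.048 (SE 0.073, limma adjusted p = 0.887). Its second probe showed no such split, with ratios of 0.0096, -0.096, -0.076 and 0.028 on arrays 1 to 4.

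Ndufv3 is a small subunit at the tip of the matrix arm. It measured 16.44, 16.26, 16.34 and 15.74 in mutants, against 15.94, 16.57, 16.09 and 16.13 in wild types. The Cy5 sample was again the brighter one on all 4 arrays, and the change was 0.013 (SE 0.076, limma adjusted p = 0.971). The other accessory subunits of the matrix arm, Ndufs4, Ndufs6, Ndufa2, Ndufa6, Ndufa7, Ndufa9 and Ndufa12, had changes from -0.093 for Ndufa6 to 0.044 for Ndufa12.

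Ndufa4 was first described in complex I and is now also assigned to cytochrome c oxidase, complex IV. It measured 15.92, 15.95, 15.60 and 16.09 in mutants, against 16.24, 15.82, 16.01 and 15.56 in wild types. Its Cy3 sample was the brighter one on all 4 arrays, with ratios of -0.32, 0.13, -0.40 and 0.54, and the change was -0.015 (SE 0.092, limma adjusted p = 0.973). Leaving Ndufa4 out moved the median of the subunits to -0.049.

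Some subunits have named near-copies in the RefSeq table, which were not separated from them here: Ndufa11b, Ndufa12-ps, Ndufab1-ps, Ndufb4b, Ndufb4c, Ndufs5-ps and Ndufs6b. Values of Ndufa11, Ndufa12, Ndufab1, Ndufb4, Ndufs5 and Ndufs6 may hold signal of these copies.

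**Figure D2:**
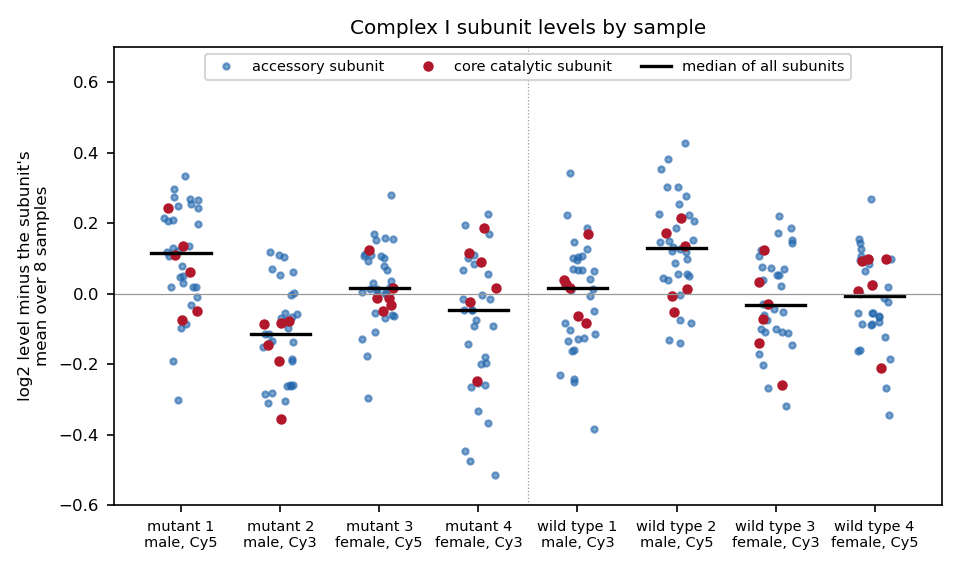
Log2 level of each subunit in each of the 8 samples, minus that subunit's mean over the samples; blue points are the 30 accessory and red points the 6 core subunits, and black bars are medians over all 36. Mutant medians were 0.11, -0.11, 0.015 and -0.048 and wild type medians 0.015, 0.13, -0.031 and -0.0067, so the genotypes overlap.

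The arrays differed from each other more than the genotypes did. The median log2 ratio over the 36 subunits was 0.074, -0.25, 0.052 and -0.065 on arrays 1 to 4, a spread of 0.15 (SD, n = 4 arrays), while the median of all genes stayed between -0.0079 and 0.028. The mutant was the lower one for 11, 34, 14 and 24 of 36 subunits on arrays 1 to 4, against 45.6%, 48.1%, 47.5% and 51.5% of all genes. The core medians were 0.051, -0.26, 0.061 and -0.0070, and the accessory medians were 0.093, -0.25, 0.052 and -0.068. Both groups were thus highest on arrays 1 and 3 and lowest on array 2.

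Arrays 1 and 3 are those with the mutant in Cy5. The median ratio of the subunits was 0.10 with the mutant in Cy5 and -0.16 with the mutant in Cy3. The dye term, the fitted shift of a probe toward Cy5 where positive and toward Cy3 where negative, had a median of 0.13 (0.081 for core and 0.14 for accessory subunits), against 0.016 over all genes. It was positive for 30 of 36 subunits (83.3%), against 53.7% of all genes. The median was positive under every scaling tried, from 0.054 in the authors' deposited table to 0.90 with median centring, which moved the median of all genes to 0.46.

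Single subunits followed this pattern to different degrees. The mutant was higher on both arrays with Cy5 mutants and lower on both with Cy3 mutants for 18 of 36 subunits (50%), 3 of 6 core and 15 of 30 accessory, against 15.6% of all genes. The opposite pattern was seen for Ndufa7 and Ndufa4, against 14.4% of all genes. The largest dye term was 0.43, for Ndufa13, a membrane-arm subunit also known as GRIM-19. Ndufa13 measured 17.64, 17.15, 17.53 and 17.29 in mutants, against 17.31, 17.74, 17.12 and 17.70 in wild types, and its genotype change was -0.063 (SE 0.072). The dye term passed the limma adjusted threshold for 0 of 36 subunits and for 0% of all genes, and an unadjusted p under 0.05 was reached by 14 of 36 (38.9%) against 21% of all genes.

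**Figure D3:**
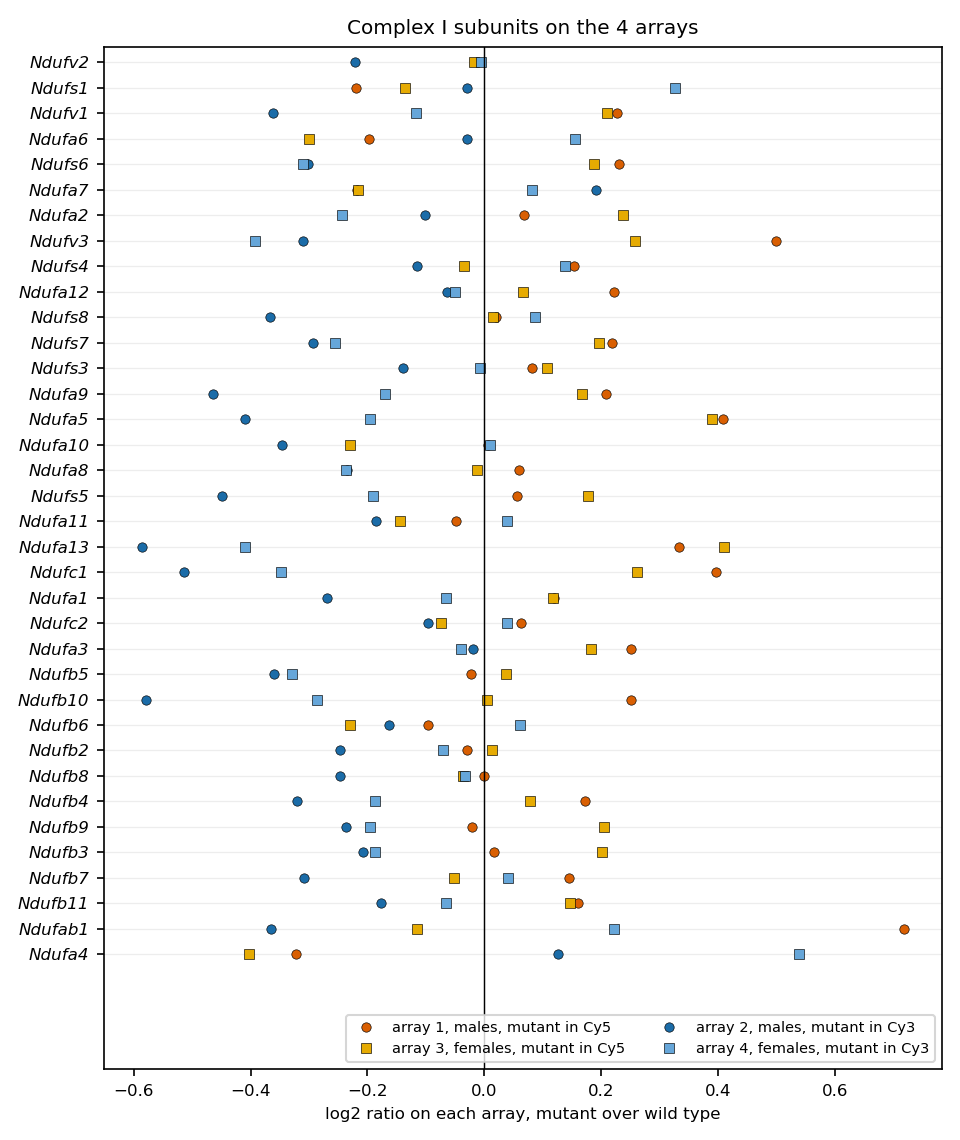
Log2 ratio of mutant over wild type for each of the 36 subunits on each array; warm colours are arrays with the mutant in Cy5, blue arrays with the mutant in Cy3, circles male and squares female pairs. For 18 of 36 subunits both warm points lie right of 0 and both blue points left of it, and Ndufa4 and Ndufa7 show the reverse.

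The probes of the subunits gave bright spots, and 34 of 36 lay in the brightest 10% of the genes tested. The 1146 genes of that range had a median dye term of 0.029 and reached an unadjusted p under 0.05 for it in 29.8% of cases, and 52.3% of them had a genotype change below 0. The part of spot brightness in the subunits' dye pattern was not tested beyond these values. Each orientation was hybridised with its own animals, so within a sex the dye and the pair cannot be told apart. Second probes did not all share the pattern of the first, as for Ndufb11, whose dimmer probe gave -0.13, 0.35, -0.18 and 0.33 on arrays 1 to 4, against 0.16, -0.18, 0.15 and -0.065 for the brighter one.

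Complexes II to V and the muscle markers moved across the arrays in the same order of dye orientation, but not every list did. The complex I assembly factors had medians of 0.055, -0.027, -0.069 and 0.017 on arrays 1 to 4. The slow-fibre genes had 0.23, -0.12, 0.54 and 0.46. The 14 genes of complexes II and III had medians of -0.011, -0.31, 0.095 and -0.10 on arrays 1 to 4, and the 13 of complex IV had 0.025, -0.14, 0.12 and -0.015. The 15 genes of ATP synthase had 0.22, -0.35, 0.35 and -0.23, and the 12 muscle markers had 0.38, -0.55, 0.42 and -0.16. The excursions of the muscle markers and of ATP synthase were wider than those of complex I on each of the 4 arrays. The fitted genotype medians were -0.074 for complexes II and III (gene of smallest p Sdhb, -0.17), -0.016 for complex IV (Cox7a2, -0.11) and -0.035 for ATP synthase (Atp5g3, -0.13), and 0 genes of these lists were called by limma.

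**Figure D4:**
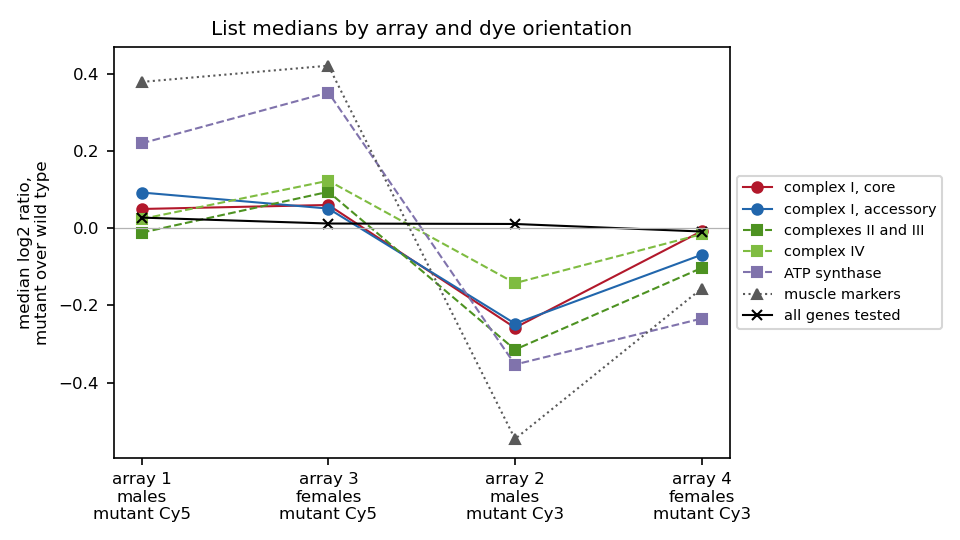
Median log2 ratio of mutant over wild type on each array, arrays ordered by dye orientation, for core and accessory complex I subunits, complexes II and III, complex IV, ATP synthase, muscle markers and all genes tested; lines only join the points of a list. Each list is lower on the Cy3 than on the Cy5 arrays, and complex I stays within -0.26 and 0.093, while the median of all genes moves only between -0.0079 and 0.028.

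The effect of genotype was also compared between the sexes. The genotype by sex term called 0 of 36 subunits (limma adjusted p 0.641 or higher) against 3.89% of all genes, and 0 of 36 reached an unadjusted p under 0.05 against 12.7% of all genes. The median genotype change was -0.0057 in females and -0.085 in males. The female minus male difference had a median of 0.055, against -0.022 over all genes. It was above 0 for 28 of 36 subunits, against 5202 of all 11453 genes. With median centring it was above 0 for 0 of 36, with a median of -0.25 against -0.18 over all genes. In the authors' deposited table it was above 0 for 3 of 36, with a median of -0.14 against -0.14 over all genes. Among accessory subunits, the smallest p of this term belonged to Ndufs5 at 0.19 (SE 0.14), Ndufv3 at -0.16 (SE 0.15) and Ndufa4 at 0.17 (SE 0.17). Among core subunits the differences ran from 0.0078 for Ndufs7 to 0.22 for Ndufs8, with SE from 0.14 to 0.17. With 2 pairs per sex the term had 1 residual degree of freedom.

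Assembly factors insert and join the subunits without staying in the finished enzyme. Of 20 listed genes, 19 were tested (Coa1 was not, and Cox19, better known for complex IV, was on the list), and 0 were called for genotype. The change was above 0 for 8 and below 0 for 11, with a median of -0.021. The smallest p among higher values belonged to Ndufaf4 at 0.16 (SE 0.066, limma adjusted p = 0.707) and Ndufaf3 at 0.13 (SE 0.098, adjusted p = 0.749), which act together in early assembly. Ndufaf4 had ratios of -0.099, 0.40, -0.069 and 0.40 on arrays 1 to 4, so the mutant was higher where it carried Cy3.

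Among lower values, Tmem126b and Timmdc1, both needed to build the membrane arm, measured -0.19 (SE 0.094, limma adjusted p = 0.707) and -0.22 (SE 0.16, adjusted p = 0.748). Timmdc1 was the only one of the 19 assembly factors tested that was called for the genotype by sex term, against 3.89% of all genes. Its difference was 0.69 for females minus males (SE 0.14, limma adjusted p = 0.0481). The call ended in 6 of 8 alternatives, with adjusted p from 0.0802 (no filter) to 0.9995 (no dye term) where it ended and differences from 0.46 to 0.69. In females its levels were 12.30 and 12.12 in mutants, against 11.95 and 12.22 in wild types. In males they were 11.01 and 10.60 in mutants, against 11.33 and 11.41 in wild types. The females overlapped, and the male mutants were the lowest of the 8 samples. Ndufa4l2, a paralogue of Ndufa4, had a genotype change of -0.086 (SE 0.10, limma adjusted p = 0.846).

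Markers of other cells were followed beside these values, and no gene of their lists was called for genotype by limma. All 7 erythroid genes tested had higher fitted values in mutants, with a median of 0.88 on the log2 scale, and Hba-a2 and Alas2 reached an unadjusted p under 0.05. The rise lay in the female pairs, with a median of 1.68 against 0.011 in male pairs. On arrays 1 to 4 the medians were -0.28, 0.29, 1.68 and 1.82, and 5 of the 7 genes were lower in the mutant on array 1. The summed linear signal of the erythroid genes was 963000 in mutant 4 and 195000 to 362000 in the other mutants, against 92400 to 359000 in wild types. For genotype by sex, 6 of the 7 were called, against 3.89% of all genes, but 0 with no dye term or no replicate block and 1 with the scanner's own ratio or the authors' deposited table.

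Of 8 slow-fibre genes, 4 (Tnnt1, Tnni1, Tnnc1 and Tpm3) were higher in mutants at an unadjusted p under 0.05, against 3.41% of all genes. Fitted values were higher for 7 of the 8, with a median of 0.29. Of 9 fast-fibre genes, 7 were higher, with a median of 0.093, and 0 reached that threshold. The summed signal of the 12 muscle markers was 2070000 to 3020000 in mutants and 1860000 to 3180000 in wild types, and 41.9% of it came from Acta1, Tnni2 and Tnnt3, which were saturated in some samples. Of 6 adipocyte markers, Cfd measured 0.80 (SE 0.18, limma unadjusted p = 0.00589), Cidec 0.29 and Retn -0.034, and Adipoq, Plin1 and Lep did not pass the filter. Their summed signal was 2820 to 11400 in mutants and 1190 to 10000 in wild types.

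Of 6 macrophage markers, 4 were tested, with a median of 0.0092, and Cd68 and Adgre1 were not. The fibroblast collagen Col3a1 measured -0.57 (SE 0.11, limma unadjusted p = 0.00261), in a list of 5 with a median of 0.020. The 5 endothelial markers had a median of -0.036 and the 4 Schwann cell markers tested a median of 0.18. The part of these cell types in the values of the subunits was not tested.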

How the data were processed

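Transcripts of red gastrocnemius from 4 Pus1 mutant and 4 wild type mice were measured on 4 Agilent 2-colour arrays, all on 1 slide. The deposited scanner files, made with Agilent Feature Extraction 10.7.3.1 per the submitters' processing notes, hold spot and local background intensity per channel, per the file headers. They also hold the program's own ratio on the log10 scale, processed Cy5 over Cy3, per the file headers, and flags of 0 or 1 for spots above background, saturated or outlying. The authors' deposited table is on the log2 scale. Its channel differences were compared across probes with the ratios of the scanner program, after these were converted from log10 to log2. The correlation r was 0.985, 0.983, 0.980 and 0.989 on arrays 1 to 4, with slopes of 0.979, 0.990, 1.03 and 1.03. These values settle the scale and direction of the authors' table. Each probe is centred on its median over samples, and its column medians are -0.0017, 0.0066, 0.0045 and 0.019 for mutants 1 to 4 and -0.035, -0.063, 0.013 and 0.0035 for wild types 1 to 4. How the authors made it is not given in the sources used here.

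Median spot signals were background-corrected in limma 3.58.1 (R 4.3.3) by normexp (offset 50), normalized by loess within arrays and turned to mutant over wild type. Spots of a probe were averaged. Of 55681 probes on 62976 spots, 27656 were named by accession through a RefSeq table of GRCm38.p6, 21152 had at least 50% of spots well above background in all 4 samples of a genotype, and 14514 were named and kept, of which 14509 were tested after 5 were lost to outlier flags. The brightest probe stood for a gene. Single-sample log2 levels came from the same ratios after Aquantile scaling of the averages. Levels of different probes were not set against each other.

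Genotype was fitted on 4 ratios with a dye term (2 residual degrees of freedom, prior 3.22), and genotype by sex in the same model (1, prior 6.05). Adjusted p-values are Benjamini-Hochberg over 11453 genes, threshold 0.05, 2-sided. The script was tested on simulated ratios, with 50 genes changed at each size. For genotype it called 0 of 50 at a log2 size of 0.2, 10 at 0.5, 44 at 1 and 49 at 2. For genotype by sex it called 0 of 50 at 0.2, at 0.5 and at 1, and 36 at 2. Among unchanged genes there were 5 false calls for genotype and 4 for genotype by sex. Simulated spreads were drawn gene by gene from the prior of the genotype fit for both terms. The counts for genotype by sex thus do not describe the fit on the real data, where 445 genes were called for this term. The array is the pair: labels give its mice 1 individual number, and deviations from group means correlated within pairs 1 to 4 at 0.382, 0.251, 0.12 and 0.502. The members and lists were chosen with earlier results of these data known. Per-sample values are given for all core subunits and for the accessory subunits of smallest genotype p (5), highest and lowest change (3 each) and smallest sex p (3). Ndufa13 was added after its values were seen, as the largest dye term. Alternatives covered background, normalization, the program's ratio, the authors' table, filter, probe choice, dye term, pairing, sex and each pair left out. The number of arrays limits precision.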

Additional observations from a re-analysis of the deposited data

Results flagged for a closer look

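Of 156 groups of 4 values tested for a sample far from the others (array ratios, mutant levels and wild type levels of each subunit and the lists beside it), 4 stood out, and chance gives about 5% of groups. On array 2 the ratio of Ndufv2 was -0.22, while the other arrays lay between -0.017 and -0.0061. On the same array Ndufs8 was at -0.37, with the others between 0.015 and 0.087. Ndufb8 was at -0.25 there, with the others between -0.036 and -0.0014. In wild type 2, the partner on that array, the log2 level of Ndufb6 was 14.90, while the other wild types lay between 15.15 and 15.17.

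Between the sexes, the genotype change of Timmdc1 differed by 0.69 (females minus males, limma adjusted p = 0.0481), with a mean ratio of 0.12 in female and -0.57 in male pairs. This term called 3.89% of all genes. The call of Timmdc1 ended in 6 of 8 alternatives.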

How the results depend on the processing

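The count of subunits called for genotype was 0 under all 15 alternatives and for genotype by sex under those that fit it. The count at an unadjusted p under 0.05, 1 as reported, remained 1, Ndufb5, with no background subtraction and with the mean of all probes. It was 0 with median centring, the scanner's own ratio, the authors' deposited table, no filter, no dye term, female pairs alone, male pairs alone, and without replicate 1, 2, 3 or 4. In the fits on separate channels that address the pairing, it was 0 with no replicate block and 0 with the array as a random replicate block (consensus correlation 0.543). The median genotype change ran from -0.095 without replicate 4 to 0.022 in the authors' deposited table. The core minus accessory difference ran from 0.0076 to 0.074 over the fits without replicate 1, 2, 3 or 4. This difference turned sign between the sexes, at -0.0074 with male pairs alone and 0.060 with female pairs alone. The median female minus male change was -0.25 with median centring, where that of all genes was -0.18, and -0.14 in the authors' deposited table, where that of all genes was -0.14. The median dye term was 0.90 with median centring. Of 36 subunits, 22 changed sign in at least 1 alternative, and 12 were lower and 2 higher in mutants in all 15. The genotype by sex call of Timmdc1 kept its direction in 8 of 8 alternatives, a check added after seeing the data, and missed the threshold with median centring, the scanner's own ratio, the authors' deposited table, no filter, no dye term and no replicate block (limma adjusted p from 0.0802 to 0.9995). Over all genes, 267 were called with median centring and 2 as reported, and 0 to 8 under the other alternatives. Why these values moved was not tested; fits without a replicate hold fewer samples.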
